A study of Mus musculus with 10 samples.

Results

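The genes described here encode the TGFß ligands, the receptors that bind them and the SMADs that carry their signal, in the murine basal cell carcinoma (BCC) cell line ASZ001. They were picked by symbol. The 3 ligand genes are Tgfb1, Tgfb2 and Tgfb3, the 4 receptor and co-receptor genes are Tgfbr1, Tgfbr2, Tgfbr3 and Eng, and the 3 SMAD genes are Smad2, Smad3 and Smad4. All 10 were listed in both deposited tables, among 15997 genes named in both. ASZ001 is a single cell line, selected for growth despite inhibitors of Smoothened, with its MRTF cofactor in the nucleus. All cells, controls included, were kept in medium with 0.2% chelated FBS for 24 h before RNA-seq. In the SB431542 experiment, 3 libraries of cells given 10 µM SB431542, an inhibitor of the ALK5 receptor kinase, were set against 3 DMSO libraries. In the T-5224 experiment, 2 libraries of cells given 20 µM T-5224, an inhibitor of AP-1, were set against 2 other DMSO libraries. The comparisons ask how the genes of the TGFß signal itself respond when the receptor kinase or AP-1 is inhibited.

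TGFß ligands are secreted as latent dimers, held by latent TGFß binding proteins and released by integrins or proteases. An active ligand brings together the type II receptor TßRII, encoded by Tgfbr2, and the type I receptor ALK5, encoded by Tgfbr1. ALK5 then phosphorylates SMAD2 and SMAD3, which join SMAD4 and enter the nucleus, often acting there beside AP-1. In skin, TGFß restrains growth of keratinocytes and marks the matrix and dermal papilla of the hair follicle.

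Expression was read as RPKM, read number scaled by transcript length and library size, so that levels of different genes can be set side by side within a table. The tables were normalized separately, so a fold change always refers to controls within the same table. A gene with a mean RPKM of at least 1 was tested with limma on log2(RPKM + 0.5). It is said to have risen or fallen where the p adjusted over all genes tested was under 0.05. The pseudocount of 0.5 makes the log2 fold change of a gene with low RPKM smaller than the ratio of its means, so both are given. Of the 10 genes, 8 passed the filter in each table, and Tgfbr3 and Eng did not. Depth, estimated from the steps between low RPKM values, lay between 31.8 and 51.5 M reads per library. DMSO replicate 1 of the SB431542 experiment stood apart from its group, with an SD of its log2 deviations of 0.272 against 0.161 and 0.190 for the other DMSO libraries. All 11 keratinocyte and BCC markers checked, among them Krt5, Krt14, Trp63 and Gli1, were at or above 1 RPKM on average in every group.

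Promoter sequence is shown for Tgfb2, which had the largest fall of the 10 genes, for Eng, lower with both inhibitors, and for Tgfb1, the ligand gene with the highest RPKM. The sequences are the 250 bases before the RefSeq start site in build GRCm38.p6, written 5′ to 3′ along the gene's strand. Of the 10 genes, 6 had such a window, and Tgfbr1 had 2. Capitals mark CAGAC or its reverse GTCTG, the short element that SMAD proteins contact, and CGTCA, a core of the cyclic AMP response element.
Tgfb2, chr1:186705990-186706239, minus strand: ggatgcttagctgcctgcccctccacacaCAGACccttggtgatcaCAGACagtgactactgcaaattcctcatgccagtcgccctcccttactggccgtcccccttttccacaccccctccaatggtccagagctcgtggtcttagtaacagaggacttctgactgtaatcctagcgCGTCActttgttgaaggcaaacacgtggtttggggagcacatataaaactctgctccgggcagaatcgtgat
Eng, chr2:32646345-32646594, plus strand: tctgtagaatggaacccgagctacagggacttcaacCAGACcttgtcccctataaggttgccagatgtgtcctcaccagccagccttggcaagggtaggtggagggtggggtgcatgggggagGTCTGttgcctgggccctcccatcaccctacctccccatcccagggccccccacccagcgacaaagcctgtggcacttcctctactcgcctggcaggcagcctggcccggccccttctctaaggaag
Tgfb1, chr7:25686752-25687001, plus strand: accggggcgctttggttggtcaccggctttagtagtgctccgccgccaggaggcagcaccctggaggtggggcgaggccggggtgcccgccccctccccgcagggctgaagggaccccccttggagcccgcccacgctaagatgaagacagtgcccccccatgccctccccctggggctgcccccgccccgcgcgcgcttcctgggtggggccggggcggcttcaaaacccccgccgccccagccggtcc

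Motifs were searched on both strands of the windows. In Tgfb2, CGTCA began at position −72 from the start site and CAGAC at −221 and −204. The window also held the E-box CACGTG at −51 and the TATA box TATAAA at −31. The Eng window held CAGAC at −214 and GTCTG at −127, while the Tgfb1 window held no match to any motif searched. Among the windows not shown, CAGAC was at −203 in a Tgfbr1 window and at −160 in that of Tgfbr2. Neither of those genes passed the test with either inhibitor. The window of Smad3, which fell with T-5224, held no match. CAGAC or GTCTG was in 49.6% of the 32851 windows of all genes, each of which also takes in the first bases after the start site. CGTCA, which lies within the full response element TGACGTCA, was in 20.8% of windows, TGACGTCA in 1.79%, CACGTG in 7.15% and TATAAA in 13.6%. The AP-1 site TGACTCA was in 5.20% of all windows, and the palindromic SMAD site GTCTAGAC in 0.213%. Neither was found in the 7 windows of these genes, which says only that these letters are not within them.

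In DMSO, Tgfb1 had the highest RPKM of the 10 genes in both tables. In the SB431542 experiment it was followed by Smad4, Tgfbr2, Tgfb2, Smad3, Tgfbr1 and Smad2, with means from 27.9 RPKM for Tgfb1 down to 8.92 RPKM for Smad2. Tgfb3 was at 1.60 RPKM, Eng at 0.372 RPKM and Tgfbr3 at 0.0997 RPKM. Tgfbr2 and Tgfb2 overlapped in their DMSO libraries, and no other neighbours in this order did. In the T-5224 experiment Tgfb1 was followed by Tgfb2, Smad4, Smad3, Tgfbr2, Tgfbr1, Smad2, Tgfb3, Eng and Tgfbr3. There no neighbours overlapped, although each group held only 2 libraries. The DMSO level of Tgfb1 was above that of 84.0% of genes in the first table and of 91.9% in the second.

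**Figure D1:**
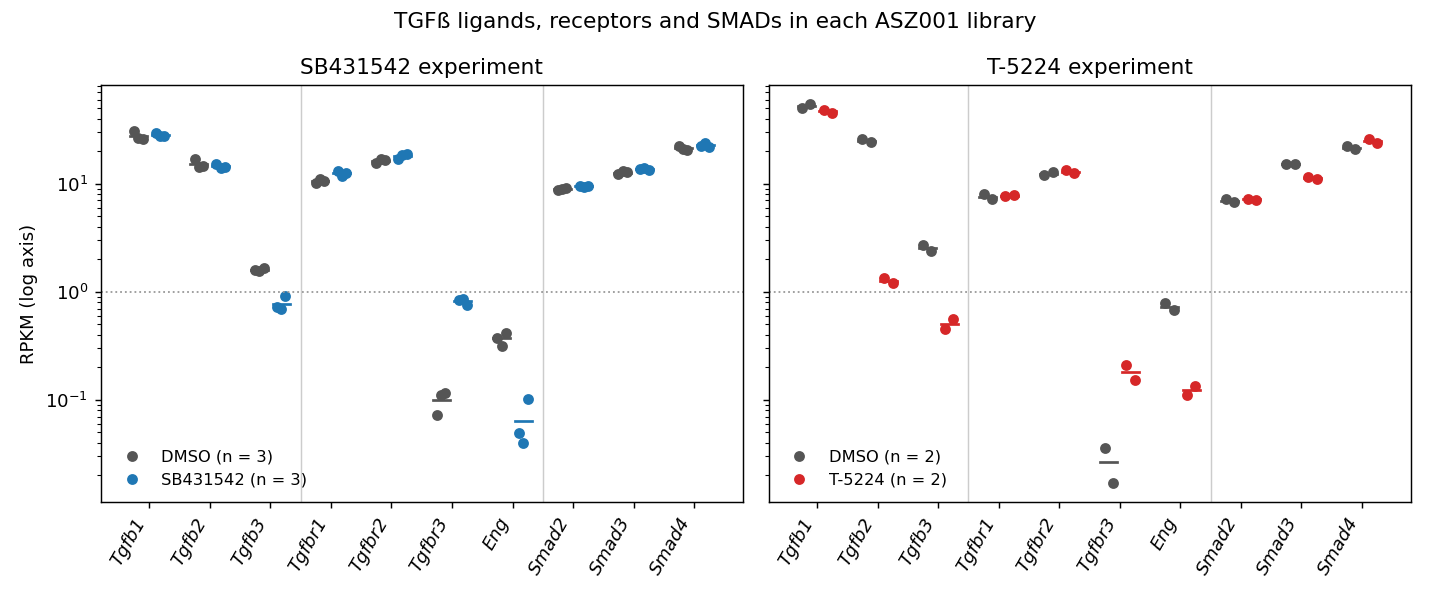
RPKM (log axis) of the TGFß ligand, receptor and SMAD genes in each library of the SB431542 experiment (left) and the T-5224 experiment (right). Points are libraries, short bars are group means and the dotted line is at 1 RPKM. With T-5224, Tgfb2 moved from about the level of Smad4 to near the line, while Tgfb1 stayed close to its DMSO libraries.

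The ligand genes parted with T-5224. Tgfb2 fell to 5.07% of its DMSO mean and Tgfb3 to 19.9%, while Tgfb1 kept 88.8%. With SB431542, Tgfb3 fell to 48.6% of its DMSO mean, and Tgfb1 and Tgfb2 did not pass the test.

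Tgfb2 (mm9 chromosome 1, 188447065 to 188529871, minus strand) had 25.948 and 24.184 RPKM in the T-5224 experiment's DMSO libraries. With the inhibitor it had 1.331 and 1.209 RPKM. Both treated libraries lay far below both controls. The means were 25.1 ± 1.25 RPKM (SD, n = 2) and 1.27 ± 0.0863 RPKM (SD, n = 2), a ratio of 19.7. The log2 fold change was −3.85 (standard error 0.09, 95% interval −4.04 to −3.66, limma adjusted p = 1.18e-11). Of the 10809 genes tested, 17 fell at least as far, Tgfb2 included. With SB431542, Tgfb2 was at 17.084, 14.183 and 14.475 RPKM in DMSO and at 15.204, 13.952 and 14.172 RPKM with the inhibitor. These groups overlapped, and the log2 fold change was −0.07 (standard error 0.08, 95% interval −0.26 to 0.12, limma adjusted p = 0.562).

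Tgfb3 (mm9 chromosome 12, 87397694 to 87419991, minus strand) was the ligand gene that fell with both inhibitors. With SB431542, it went from 1.604, 1.556 and 1.647 RPKM in DMSO to 0.729, 0.691 and 0.915 RPKM. All 3 treated libraries lay below all DMSO libraries. The log2 fold change was −0.72 (standard error 0.10, 95% interval −0.96 to −0.49, limma adjusted p = 0.00405), with group means of 1.60 ± 0.0455 RPKM and 0.778 ± 0.120 RPKM (SD, n = 3). With T-5224, Tgfb3 went from 2.697 and 2.391 RPKM to 0.449 and 0.564 RPKM, again without overlap. That log2 fold change was −1.60 (standard error 0.13, 95% interval −1.89 to −1.31, limma adjusted p = 4.83e-07), and the DMSO mean was 5.02 times the treated mean. Tgfb3 passed the filter of 1 RPKM in both tables through its DMSO libraries, since its treated means were below it.

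Tgfb1 (mm9 chromosome 7, 26472021 to 26490096, plus strand), the form of the ligand most abundant in many tissues, moved little. Its RPKM was 30.901, 26.614 and 26.199 in DMSO and 29.501, 27.71 and 27.353 with SB431542. The groups overlapped, with a log2 fold change of 0.02 (standard error 0.07, 95% interval −0.16 to 0.19, limma adjusted p = 0.888). With T-5224 it went from 50.213 and 54.784 RPKM to 47.941 and 45.283 RPKM, where the groups did not overlap. The log2 fold change of −0.17 (standard error 0.06, 95% interval −0.30 to −0.03) had an adjusted p of 0.0247 (limma), a fall to 88.8% of the DMSO mean. The call was lost without DMSO replicate 2 (−0.11, adjusted p = 0.186) and without T-5224 replicate 2 (−0.13, adjusted p = 0.164), and quantile normalization gave −0.28.

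As Tgfb2 and Tgfb3 fell much further than Tgfb1, the ligand transcripts became almost all Tgfb1 with T-5224. The ligand RPKM summed to 78.9 and 81.4 in the DMSO libraries and to 49.7 and 47.1 in the T-5224 libraries, a ratio of means of 0.604. The share of Tgfb1 in that sum went from 65.5 ± 2.59% to 96.3 ± 0.133% (SD, n = 2), and that of Tgfb2 from 31.3 ± 2.25% to 2.62 ± 0.0761%. For each of these, the groups did not overlap, and the exact permutation test (two-sided) gave p = 0.33, the smallest that 2 against 2 libraries allow. With SB431542, the sum was 44.8 ± 4.19 RPKM in DMSO and 43.4 ± 1.75 RPKM with the inhibitor (SD, n = 3, exact permutation p = 1.0, two-sided). The share of Tgfb3 went from 3.60 ± 0.335% to 1.80 ± 0.311% (SD, n = 3), where the exact permutation p of 0.1 is the smallest possible for 3 against 3.

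**Figure D2:**
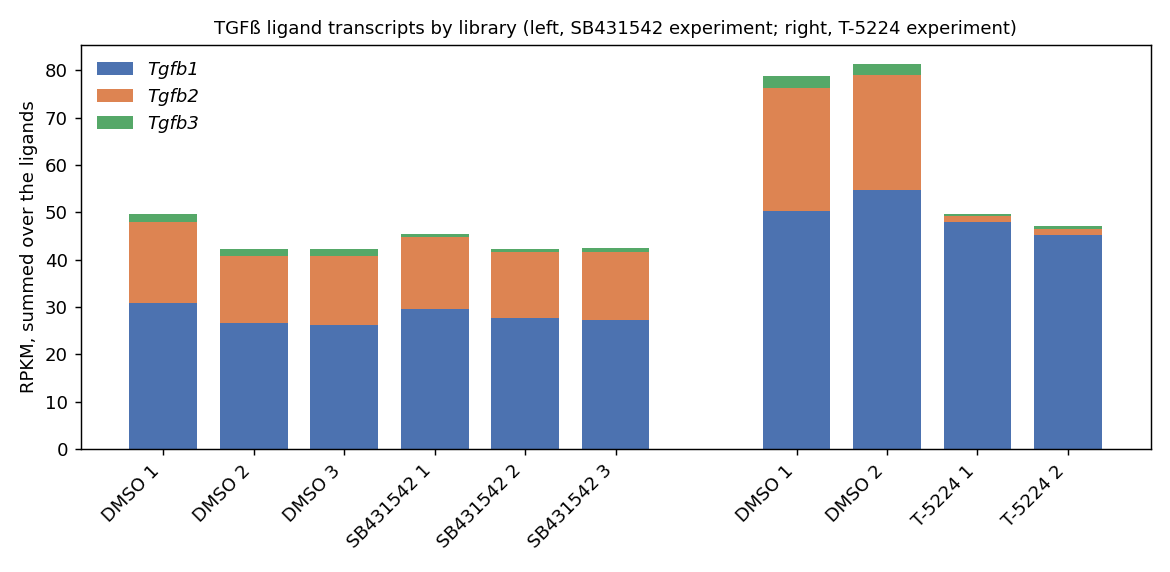
Summed RPKM of the ligand genes Tgfb1, Tgfb2 and Tgfb3 in each library (stacked bars from 0). The T-5224 libraries reach 49.7 and 47.1 RPKM, nearly all of it Tgfb1, against 78.9 and 81.4 RPKM in their DMSO libraries.

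The genes of the signalling receptors differed from DMSO by at most 1.17 times in mean RPKM with either inhibitor, and neither Tgfbr1 nor Tgfbr2 passed the test. The co-receptor genes, present at under 1 RPKM throughout, moved in opposite directions, with Tgfbr3 higher and Eng lower with both inhibitors.

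Tgfbr1 (mm9 chromosome 4, 47366094 to 47427803, plus strand) encodes ALK5, the kinase that SB431542 inhibits. It was at 10.24, 11.106 and 10.547 RPKM in DMSO and at 13.119, 11.708 and 12.547 RPKM with SB431542. All treated libraries lay above all DMSO libraries, yet the log2 fold change of 0.22 (standard error 0.06, 95% interval 0.07 to 0.37) had an adjusted p of 0.0506 (limma), just short of the threshold. The threshold was passed without DMSO replicate 1, the library that stood apart (0.19, adjusted p = 0.0338). It was also passed under quantile normalization (0.24, adjusted p = 0.0345), median centring (0.22, adjusted p = 0.0416) and a stricter filter of 5 RPKM (0.22, adjusted p = 0.0497). The other 6 of 9 changed settings left Tgfbr1 short of it (limma adjusted p up to 0.128). So did 5 of the 6 fits with a library left out (limma adjusted p up to 0.18). With T-5224, Tgfbr1 was at 8.042 and 7.181 RPKM in DMSO and at 7.634 and 7.855 RPKM treated. Both treated libraries lay between the DMSO libraries, with a log2 fold change of 0.03 (95% interval −0.16 to 0.21, limma adjusted p = 0.788).

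Tgfbr2 (mm9 chromosome 9, 115993415 to 116084383, minus strand) encodes the type II receptor that binds the ligand first. It was at 15.455, 16.772 and 16.558 RPKM in DMSO and at 16.974, 18.289 and 18.656 RPKM with SB431542. The groups did not overlap, but the log2 fold change of 0.14 (95% interval −0.0032 to 0.28) did not pass the test (limma adjusted p = 0.146). With T-5224 it was at 12.081 and 12.784 RPKM in DMSO and at 13.272 and 12.448 RPKM treated, with overlap and a log2 fold change of 0.05 (95% interval −0.11 to 0.20, limma adjusted p = 0.557).

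Tgfbr3 (mm9 chromosome 5, 107535589 to 107718648, minus strand) encodes betaglycan, a co-receptor that presents TGFß, the TGFß2 form above all, to the signalling receptors. With SB431542 it went from 0.072, 0.11 and 0.117 RPKM in DMSO to 0.832, 0.866 and 0.756 RPKM. The treated mean of 0.818 ± 0.0563 RPKM was 8.21 times the DMSO mean of 0.0997 ± 0.0242 RPKM (SD, n = 3). On its longest coding transcript this amounts to about 16 to 33 reads per DMSO library and 217 to 228 reads per treated library. Tgfbr3 was under the filter, so its test comes from the fit with no filter, where the log2 fold change was 1.14 (standard error 0.06, 95% interval 0.99 to 1.28, limma adjusted p = 6.19e-04). With a pseudocount of 0.1 in place of 0.5, that value was 2.21 (adjusted p = 0.00101).

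With T-5224, Tgfbr3 went from 0.036 and 0.017 RPKM to 0.209 and 0.152 RPKM, about 7 and 4 reads in DMSO against 66 and 45. Both treated libraries were higher, at a ratio of means of 6.81. The log2 fold change in the fit with no filter was 0.37 (standard error 0.06, 95% interval 0.21 to 0.53, limma adjusted p = 0.00571), and 1.15 with a pseudocount of 0.1. The call was lost without DMSO replicate 1 (0.40, adjusted p = 0.0606) and without DMSO replicate 2 (0.34, adjusted p = 0.0706).

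Eng (mm9 chromosome 2, 32502115 to 32538189, plus strand) encodes endoglin, a co-receptor best known from endothelial cells. It was at 0.377, 0.318 and 0.42 RPKM in DMSO and at 0.049, 0.04 and 0.101 RPKM with SB431542. In the T-5224 experiment it was at 0.78 and 0.673 RPKM in DMSO and at 0.112 and 0.135 RPKM treated. The treated mean was 0.17 times the DMSO mean in each experiment, without overlap in either. On the longest coding transcript, about 48 to 60 reads per DMSO library stood against 6 to 18 per SB431542 library. For T-5224, about 89 and 94 reads in DMSO stood against 21 and 24 treated, so these ratios rest on few reads. In the fits with no filter, the log2 fold change was −0.63 (standard error 0.06, 95% interval −0.78 to −0.48, limma adjusted p = 0.00486) with SB431542 and −0.98 (standard error 0.08, 95% interval −1.18 to −0.77, limma adjusted p = 5.45e-04) with T-5224. A pseudocount of 0.1 gave −1.54 and −1.89.

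Of 6 endothelial markers, 4 were listed in each table and Pecam1 alone reached 1 RPKM. Their summed level was 5.33 to 6.76 RPKM in DMSO and 2.76 to 2.999 RPKM with SB431542, and 11.1 to 12.1 RPKM against 4.29 to 4.80 RPKM with T-5224, nearly all of it Pecam1. Kdr was listed in neither table. Cdh5 was listed only in the second, at a DMSO mean of 0.0065 RPKM and at 0 in both T-5224 libraries. Tie1 was listed only in the first, at a DMSO mean of 0.0033 RPKM and at 0 in all SB431542 libraries. Tek went from 0.1127 to 0.147 RPKM with SB431542 and from 0.1635 to 0.0085 RPKM with T-5224. Vwf went from 0.0357 to 0.014 RPKM with SB431542 and from 0.1655 to 0.143 RPKM with T-5224. ASZ001 is a single cell line, so no endothelial cells were part of the design. What these markers mean for the result for Eng was not tested. In bulk RNA, fewer cells that express a gene and less RNA per cell cannot be told apart.

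Among the SMAD genes, Smad3 fell with T-5224 to 73.9% of its DMSO mean, Smad4 rose to 115.7%, and Smad2 did not pass the test. With SB431542 the means of the SMAD genes were 1.06 to 1.07 times those in DMSO, and none passed the test.

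Smad3 (mm9 chromosome 9, 63494574 to 63605801, minus strand), the receptor SMAD that binds DNA directly, was at 15.207 and 15.163 RPKM in DMSO and at 11.453 and 10.996 RPKM with T-5224. Both treated libraries lay below the controls, with a log2 fold change of −0.42 (standard error 0.07, 95% interval −0.57 to −0.27, limma adjusted p = 1.26e-04). With SB431542 it was at 12.209, 13 and 12.832 RPKM in DMSO and at 13.671, 13.888 and 13.268 RPKM treated. Those groups did not overlap, and the log2 fold change was 0.10 (95% interval −0.03 to 0.22, limma adjusted p = 0.231).

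Smad2 (mm9 chromosome 18, 76401234 to 76465385, plus strand) encodes the other receptor SMAD that ALK5 phosphorylates. It was at 8.767, 8.922 and 9.067 RPKM in DMSO and at 9.499, 9.409 and 9.567 RPKM with SB431542, higher in every treated library but with a log2 fold change of 0.09 (95% interval −0.04 to 0.21, limma adjusted p = 0.277). With T-5224 it was at 7.155 and 6.815 RPKM in DMSO and at 7.201 and 7.1 RPKM treated, with overlap and a log2 fold change of 0.03 (95% interval −0.14 to 0.20, limma adjusted p = 0.719). The ratio of Smad3 to Smad2 RPKM went from 2.125 and 2.225 in the DMSO libraries to 1.59 and 1.549 with T-5224 (exact permutation p = 0.33, two-sided, the smallest possible). With SB431542 it was 1.42 ± 0.0327 in DMSO and 1.43 ± 0.0448 treated (SD, n = 3, exact permutation p = 0.8, two-sided).

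Smad4 (mm9 chromosome 18, 73798663 to 73863434, minus strand) encodes the SMAD shared with the BMP branch. With T-5224 it went from 22.117 and 21.071 RPKM to 26.07 and 23.887 RPKM, higher in both libraries. The log2 fold change was 0.20 (standard error 0.07, 95% interval 0.06 to 0.35, limma adjusted p = 0.0138), and 0.13 under quantile normalization (adjusted p = 0.0453). Without T-5224 replicate 1 the call was lost (0.14, adjusted p = 0.151). With SB431542, Smad4 was at 22.164, 21.091 and 20.613 RPKM in DMSO and at 22.461, 23.655 and 22.032 RPKM treated. There the groups overlapped, with a log2 fold change of 0.09 (95% interval −0.04 to 0.22, limma adjusted p = 0.274).

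**Figure D3:**
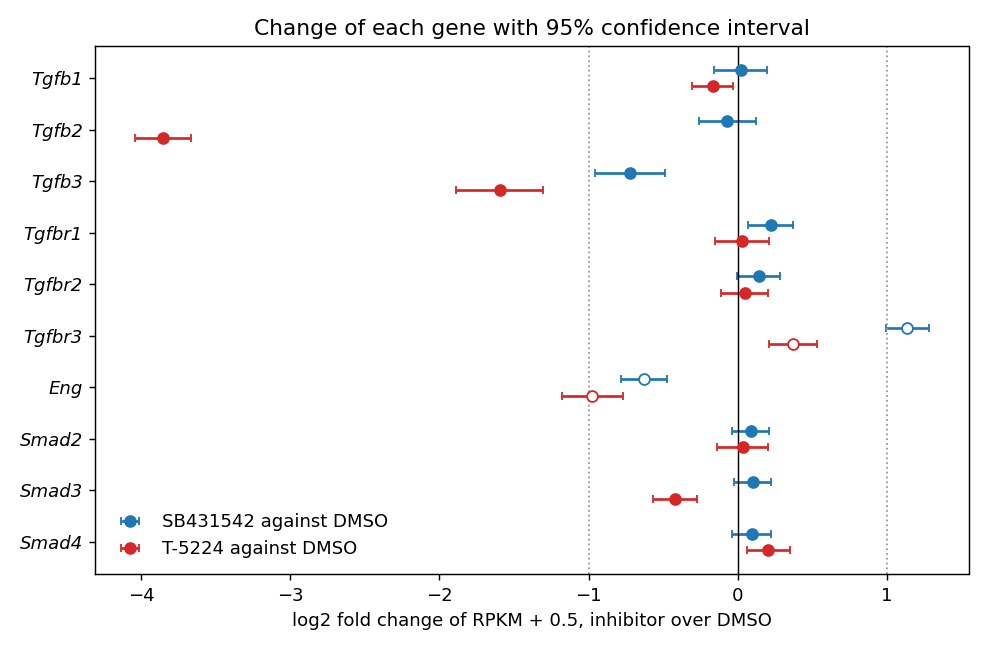
Log2 fold change (RPKM + 0.5) of each gene with its 95% confidence interval from limma, SB431542 in blue and T-5224 in red. Open points, for Tgfbr3 and Eng, come from the fit with no filter on low values, and dotted lines mark 2-fold. Tgfb2 with T-5224 lies farthest from 0 at −3.85.

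Of the 8 genes tested with SB431542, only Tgfb3 fell and none rose in the limma test. In both tables Tgfb3 had passed the filter through its DMSO libraries. Of all 10842 genes tested, 20.2% passed the limma test, 10.0% lower and 10.2% higher. That is 2192 genes, and 4063 genes passed without DMSO replicate 1. None of the 8 was beyond 2-fold in that test, where 0.581% of all genes were down and 0.231% up. The groups did not overlap for 5 of the 8 tested genes, against 45.1% of all genes tested, and for 7 of the 10, against 32.8% of all genes listed. With T-5224, 4 of the 8 fell and 1 rose, 5 in all, while 79.7% of all 10809 genes passed the test, 39.4% lower and 40.3% higher. Beyond 2-fold, Tgfb2 and Tgfb3 were down and none was up, against 10.6% and 10.4% of all genes. Groups did not overlap for 5 of the 8 tested genes, against 89.7% of all genes tested, and for 7 of the 10, against 75.5% of all genes listed. With 8 or 10 genes, 1 gene more or fewer shifts such a share widely, and no difference from all genes was tested. Of the 11 keratinocyte and BCC markers, 10 fell and 1 rose with T-5224, and their summed level went from 15030 to 15790 RPKM in DMSO to 2391 to 2502 RPKM. With SB431542, 4 of them fell and 1, Krt15, rose, with a median log2 fold change of −0.02. That sum, most of it Krt5, Krt14 and Krt17, went from 10890 to 11090 RPKM to 7602 to 8157 RPKM. Their part in the results for the TGFß genes was not tested.

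The genes nearest to each TGFß gene across the 10 libraries were found by the root mean square difference of log2(RPKM + 0.5), each library taken against its own DMSO mean, over 10462 genes. Nearest to Tgfb2 was Spon2, which encodes a secreted matrix protein, at a difference of 0.141, with log2 fold changes of −0.20 with SB431542 and −3.72 with T-5224. The next was 4833415N18Rik at 0.190. Nearest to Tgfb3 were Csrp2, a LIM domain protein of the cytoskeleton, with −0.81 and −1.63, and Hip1, an endocytic adaptor, with −0.84 and −1.60. Smad3 was closest to Sun1 and Egln2, Smad4 to Mta2 and Dhx16, and Smad2 to Trap1 and Sf3b4, all at differences of 0.0306 or less. Rab27b and Sestd1 were closest to Tgfb1, Rpl41 and Vdac1 to Tgfbr1, and Nfkb1 and Twnk to Tgfbr2. For Tgfb1, Tgfbr1, Tgfbr2 and Smad2, hardly any change had to be matched.

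Around the ligands stand the genes whose products hold and free latent TGFß. Of 17 such genes, 12 were tested in each table. With SB431542, 8 fell and none rose, where 10.0% of all genes tested fell, and the median log2 fold change was −0.37 against 0.01 over all genes tested. Ltbp3, Ltbp4, Itgav and Itgb6 did not pass, at −0.10, 0.15, 0.01 and −0.28. With T-5224, all 12 tested fell, with a median of −0.96 against 0.0034, where 39.4% of all genes tested fell. Of those not tested there, Lrrc32, which encodes the cell surface anchor of latent TGFß, went from 0.291 ± 0.0368 RPKM to 1.02 ± 0.0453 RPKM (SD, n = 2). Thbs1, encoding thrombospondin-1, a matrix protein able to activate latent TGFß, was at 203.1 ± 4.95 RPKM in DMSO and at 68.6 ± 4.47 RPKM with SB431542 (SD, n = 3), a log2 fold change of −1.56. With T-5224 it went from 142.5 ± 2.21 RPKM to 8.56 ± 0.235 RPKM (SD, n = 2), −3.98. Fbn2, a fibrillin of the microfibrils that store the latent complex, had −1.21 and −4.09, and with T-5224 passed the filter through its DMSO libraries. Mmp14, a membrane metalloprotease, had −0.95 and −1.63, and Itgb8, a subunit of the activating integrin αvß8, had −0.68 and −2.62. Ltbp1, the latent TGFß binding protein, had −0.46 and −1.86, and Itgb5 had −0.77 and −0.14. All of these values passed the test (limma, adjusted p of 0.0413 or less).

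The activin branch shares the SMAD genes, and its type I receptor, from Acvr1b, is also inhibited by SB431542. Of 13 ligand and antagonist genes, 5 were tested with SB431542, where 3 fell and 1 rose, and 6 with T-5224, where 5 fell and 1 rose. The median log2 fold changes were −0.61 and −1.72, against 0.01 and 0.0034 over all genes tested, of which 20.2% passed with SB431542 and 79.7% with T-5224. Fst, encoding the activin antagonist follistatin, fell with both inhibitors (−1.90 and −2.65), as did Inhba, the activin A subunit (−1.05 and −1.34). Inhbb, the activin B subunit, rose with SB431542 from 40.2 ± 1.97 RPKM to 51.0 ± 1.65 RPKM (SD, n = 3, log2 fold change 0.34, limma adjusted p = 0.00772), and with T-5224 fell from 106.6 ± 5.86 RPKM to 16.9 ± 0.781 RPKM (SD, n = 2, log2 fold change −2.62). Gdf11 had −2.09 with T-5224 and passed the filter through its DMSO libraries. Gdf15, a stress-induced relative of TGFß that signals through another receptor, rose from 0.102 ± 0.144 RPKM to 11.7 ± 0.00707 RPKM (SD, n = 2, log2 fold change 4.36), and passed the filter through its treated libraries.

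Among 9 other type I and type II receptor genes, 5 were tested in each table, where 1 fell and none rose with SB431542, and 3 fell and 1 rose with T-5224, against 20.2% and 79.7% of all genes that passed. Acvr1, a type I receptor of the BMP and activin branches, fell with SB431542 (−0.47, limma adjusted p = 0.00214) and rose with T-5224 (0.19, adjusted p = 0.0298). Acvr1b fell with T-5224 from 24.1 ± 0.125 RPKM to 6.91 ± 0.556 RPKM (SD, n = 2, log2 fold change −1.73), against −0.14 with SB431542 (adjusted p = 0.272). Bmpr1a and Bmpr2, receptors for BMP, fell with T-5224 (−0.58 and −0.46), and neither passed the test with SB431542. Of the 5 other SMAD genes, 4 were tested, where 2 fell with SB431542, and 1 fell and 2 rose with T-5224. Over all genes tested, 20.2% passed with SB431542 and 79.7% with T-5224, the latter near the count for these SMAD genes. Smad7, which blocks ALK5, fell with SB431542 (−0.80) and rose with T-5224 (0.34), Smad6, an inhibitor of the BMP branch, fell with both (−0.52 and −1.78), and Smad1 rose with T-5224 (0.35).

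Adaptors of the receptors and SMADs, with the enzymes that turn them over, were counted next. Of 27 such genes, 26 were tested with SB431542, where 5 fell and 3 rose, and 27 with T-5224, where 12 fell and 10 rose, and both medians were within 0.01 of 0. Over all genes tested, 10.0% fell and 10.2% rose with SB431542, and 39.4% fell and 40.3% rose with T-5224, so the T-5224 counts are near those of all genes. Pmepa1, which sequesters receptor SMADs, fell with both (−3.62 and −1.35). Bambi, a receptor without a kinase, had −0.43 and −2.68, the latter after passing the filter through its DMSO libraries, and Dab2, an adaptor between receptor and SMADs, had −0.44 and −1.72. With T-5224, Cav1, the caveolar coat protein, had −1.15 and Ctdsp2, a SMAD phosphatase, had −1.07, while the deubiquitinase Usp11 rose from 0.917 ± 0.115 RPKM to 4.43 ± 0.383 RPKM (SD, n = 2, log2 fold change 1.80), passing the filter through its treated libraries. The rises with SB431542 were small, the largest of them in the sorting nexin Snx25 (0.44) and in Strap (0.24).

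Of 15 genes for nuclear partners of the SMADs, 14 were tested in each table, where 5 fell and none rose with SB431542, and 7 fell and 5 rose with T-5224. The shares over all genes were 10.0% lower and 10.2% higher with SB431542, and 79.7% in either direction with T-5224, near the count for these partners. The corepressor Skil fell with SB431542 from 7.73 ± 0.10 RPKM to 2.47 ± 0.136 RPKM (SD, n = 3, log2 fold change −1.47) and had −0.16 with T-5224 (limma adjusted p = 0.0846). Tgif1, another corepressor, fell with SB431542 (−0.67) and rose with T-5224 (1.11). With T-5224, the corepressor Ski fell (−1.06) and E2f4 rose (1.21). Hdac1 had −1.42 with T-5224, from a DMSO mean of 3.97 RPKM, whereas its DMSO mean in the SB431542 table was 65.8 RPKM, so its row is uncertain.

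The list of 20 TGFß target genes was drawn up with results of these libraries known, and its direction is therefore not independent. It also shares Pmepa1, Smad7, Skil, Thbs1, Itgb6 and Ltbp2 with the lists above, so the counts are not separate. With SB431542, 16 were tested, 11 fell and none rose, with a median of −0.70, where 10.0% of all genes fell. With T-5224, 15 were tested, 8 fell and 3 rose, with a median of −0.45, a share that passed below the 79.7% of all genes. Ctgf, a matricellular protein, fell with both (−2.31 and −2.26). Fn1, encoding fibronectin, rose with T-5224 (1.08) and had −0.09 with SB431542 (adjusted p = 0.293). Tgfbi, a secreted matrix protein named after its induction by TGFß, fell with both (−0.71 and −1.90). The difference between the inhibitors was tested for none of these genes, as they had separate controls, doses and tables.

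**Figure D4:**
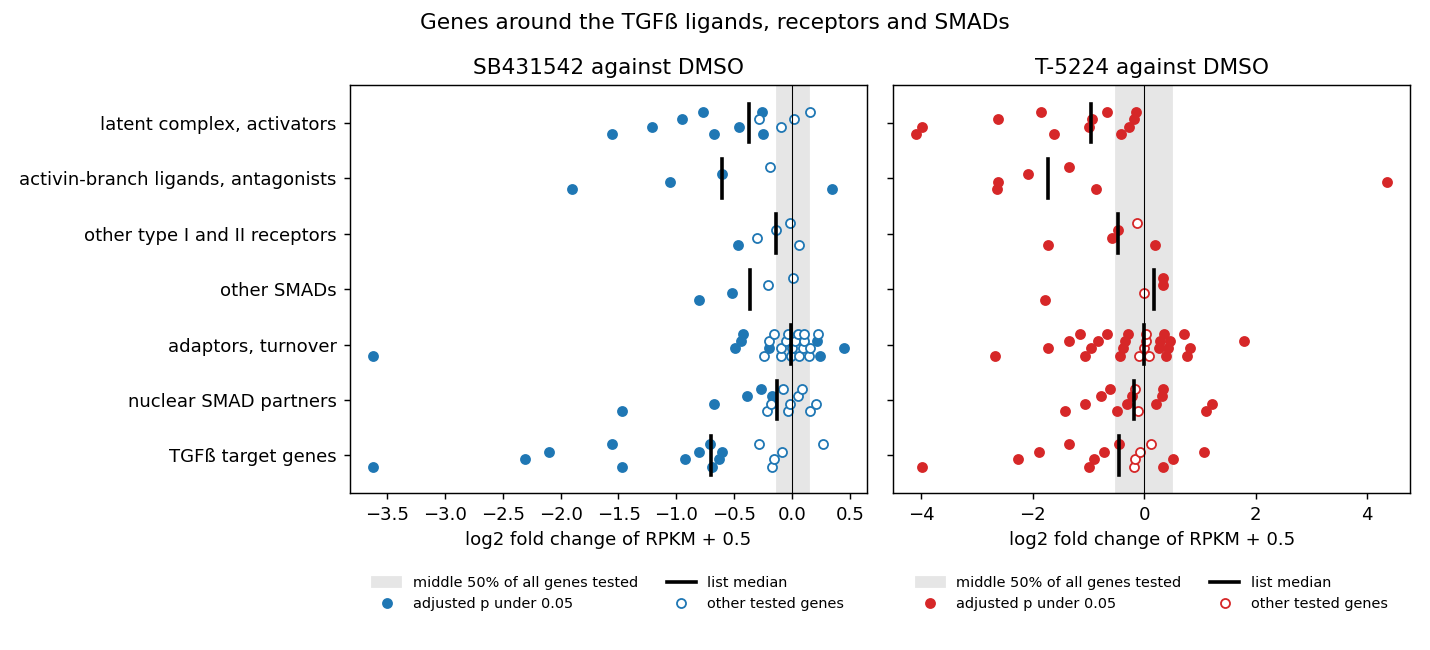
Log2 fold change (RPKM + 0.5) of the tested genes in each list around the TGFß genes, with SB431542 (left) and T-5224 (right), on different horizontal scales. Filled points passed limma at an adjusted p under 0.05, black bars are list medians and grey bands hold the middle 50% of all genes tested. All 12 tested genes for the latent complex and its activators lie left of 0 with T-5224. Target genes reach −3.62 with SB431542, in Pmepa1, which is also on the adaptor list.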

How the data were processed

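RNA-seq of ASZ001 cells was analysed from 2 deposited tables of RPKM. The authors aligned stranded mRNA libraries to mm9 with TopHat and computed RPKM with HOMER, and counts were not analysed here. Every value column entered the analysis (0 left out). Groups came from the sample labels. The DMSO columns of the T-5224 table carry the numbers 1 and 2, while the labels number those libraries 4 and 5. The study describes its replicates as biological.

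Rows whose symbol had become a date were left out (22 and 23). The filter was a mean RPKM of 1 or more, which 10842 and 10809 genes passed. Treated and DMSO libraries within a table were compared by limma 3.58.1 (R 4.3.3) on log2(RPKM + 0.5), with trend, empirical Bayes moderation and Benjamini-Hochberg adjustment. Tgfbr3 and Eng were read from the same fit with no filter. Single values were compared by exact permutation. The analysis was tested on simulated data. Positions come from GENCODE for NCBIM37, equal to mm9, and promoters from RefSeq, GRCm38.p6.

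The TGFß genes, lists, motifs and tests were chosen with earlier results of these data known. Eligible to be named, besides the TGFß genes, were list genes beyond 2-fold and the 2 nearest genes. So were the 2 largest rises and falls of each list among genes that passed. Itgb5, Bmpr2, Ltbp3, Ltbp4, Itgav, Itgb6, Lrrc32 and Postn, where outside that rule, were named after their values were seen. The depth per library was estimated and not stated, since 47.1 to 62.9% of low values of short genes lay on the ladder of whole reads within 0.05 read. The fits left out each library in turn, changed the pseudocount, filter, scaling and trend, and, for SB431542, blocked on replicate number. Marker lists for keratinocyte and BCC, endothelial, fibroblast, immune and melanocyte cells were summed. Beside the first pair, the fibroblast list reached at most 4.14 RPKM, the immune list 33.2 RPKM (Cd68) and the melanocyte list 12.7 RPKM (Mitf).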

Additional observations from a re-analysis of the deposited data

How the results depend on the processing

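Of 238 refits of the TGFß genes, 219 kept direction and side of the threshold, 8 lost the call, 4 gained it and 7 changed sign. Tgfb2 and Smad3 with T-5224, and Tgfb3 and Eng with both inhibitors, kept their calls in every refit, with Tgfb2 between −4.20 and −3.52. Tgfb3 had no value under the filter of 5 RPKM. The calls of Tgfbr1 with SB431542 and of Tgfb1, Smad4 and Tgfbr3 with T-5224 hung on the settings.

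With SB431542, Tgfb1 had −0.0067 under quantile normalization and −0.025 to 0.092 with a library left out, and Tgfb2 −0.12 to 0.010. Tgfbr1 passed with a mean RPKM of at least 5 (0.22), median centring (0.22) and quantile normalization (0.24), and lay between 0.18 and 0.26 with a library left out. With T-5224, Tgfb1 lost its call with no filter (−0.17), no trend (−0.17) and no filter with a pseudocount of 0.1 (−0.17), the last chosen after seeing the data, and lay between −0.23 and −0.11 with a library left out. Over the same refits Tgfbr1 lay between −0.051 and 0.10, Smad2 between −0.0009 and 0.065, Smad4 between 0.14 and 0.27 and Tgfbr3 between 0.31 and 0.43, its call lost without DMSO replicate 1 (0.40) or 2 (0.34). The cause was not tested. A library left out of a T-5224 group leaves 1 sample, which is assumed to vary like the other group.

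Over all genes, 2192 passed with SB431542. At an unadjusted p 3912 did, and with a library left out 741 to 4063, the extremes without SB431542 replicate 3 and DMSO replicate 1. The count was 1317 without DMSO replicate 2, 889 without SB431542 replicate 1 and 791 without SB431542 replicate 2. The share of these that were lower was 46.8 to 62.1%. Beyond 2-fold, 88 genes became 51 with a mean RPKM of at least 5 and 205 with no filter and a pseudocount of 0.1, a setting that took the 2265 of T-5224 to 3552.

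Same-numbered DMSO and SB431542 libraries correlated at −0.148, 0.151 and −0.0949, so the numbers were not read as pairs. The replicate block gave 1271 genes and changed no call of the TGFß genes tested. T-5224 libraries share no label number with their DMSO libraries.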
